A study of Mus musculus with 2 samples.

Results

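The genes described here are Prl8a2, Prl3c1 and Prl8a9, which belong to the mouse prolactin family, and Prlr, the gene of the prolactin receptor. A peak was counted to a gene when its summit lay inside the RefSeq span of that gene on mm10. By this rule 12 of the 38366 peaks in the list belonged to the 4 genes. Prlr held 7 of them, Prl8a2 and Prl3c1 held 2 each, and Prl8a9 held 1. The genes were selected on having a peak in this same list, so that all 4 carry one is no finding. Over the whole annotation, 12131 of 21785 protein-coding genes carried a peak, or 55.7%. With only peaks of at least 4-fold counted, Prl8a9 had none left, Prl8a2 kept 1, Prl3c1 kept 2 and Prlr kept 5, while 51.5% of protein-coding genes carried such a peak.

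The peaks come from MeRIP-seq, in which RNA fragments bound by an antibody against N6-methyladenosine (m6A) are sequenced beside the starting RNA, the input. The m6A library was labelled as whole uterus of wild-type C57BL/6 mice, made by mixing equal amounts from gestation day 4 and day 8. The input library was labelled as whole uterus of the same strain without antibody, and its label names no day and no pooling. Each group had 1 library, so no test between groups was possible, and the days of the pool cannot be told apart. The names of all 38366 peaks contain D8posIP, in which D8 is read here as day 8, and day 4 is not mentioned.

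Prolactin is a hormone of the pituitary, but in mice its gene has multiplied into a cluster of paralogues on chromosome 13 that are used mainly by the decidua and the placenta. The decidua is the tissue that uterine stroma forms around the implanting embryo. The receptor sits in the cell membrane and signals through the kinase Jak2 and the transcription factor Stat5. It is made in long and short forms that differ in the part inside the cell. Female mice without Prlr are infertile, with failed implantation.

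Among the prolactins, Prl8a2 had the deepest peaks and Prl3c1 the most enriched one. Fold enrichment is the authors' ratio of immunoprecipitated (IP) signal to local background at the summit. The number of IP fragments and the background behind each fold were recovered from the deposited fold and p-value. Ranges in parentheses after a fold are the exact 95% Poisson intervals that its IP fragments allow, taking the background as known. Such an interval holds counting error alone and says nothing of differences between animals or libraries. In bulk tissue, a low background can come from few cells of a type or from little RNA per cell, and these cannot be told apart.

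**Figure D1:**
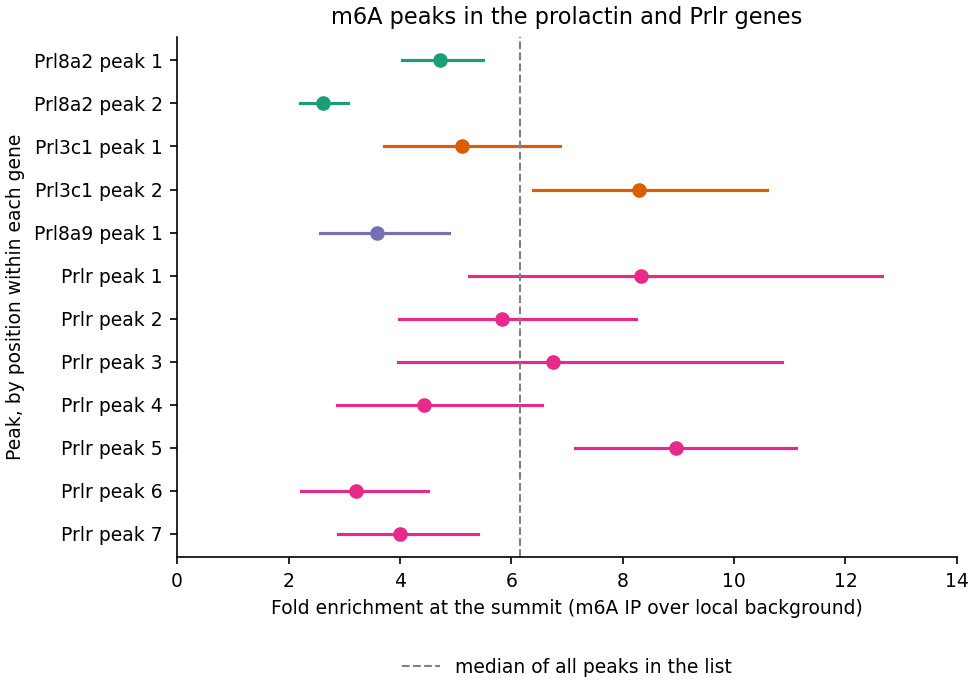
Fold enrichment at the summit (x axis) of the 12 peaks in Prl8a2, Prl3c1, Prl8a9 and Prlr (y axis, ordered by position within each gene). Points are the authors' folds, bars are exact 95% Poisson intervals and the dashed line is the median of all peaks, 6.16. The lowest value is Prl8a2 peak 2 at 2.61-fold and the highest is Prlr peak 5 at 8.96-fold.

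Prl8a2 encodes decidual prolactin-related protein, a secreted product of the decidua (NCBI Gene 13529, mm10 chromosome 13, 27345673 to 27354216). Its peak 1 ran over 1327 bases, 27348698 to 27350024, and its summit had 170 IP fragments on a background of 35.2. That gave 4.72-fold enrichment (4.04 to 5.48). Peak 2 spanned 27353737 to 27354023 and had 150 IP fragments over a background of 56.8, or 2.61-fold (2.21 to 3.06). The intervals of the pair did not overlap, and the inner peak had the higher fold. The summit of peak 2 lay 341 bases from the upper end of the span and that of peak 1 lay 3620 bases from the lower end.

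Prl8a2 stood high in this list by depth and low by fold. By IP fragments its peaks ranked 199 and 413 among all 38366. By background they ranked 351 and 70. By fold they ranked 28283 and 37442, and peak 2 stood at percentile 2.41 of all folds. The −log10 q of peak 1 was 55.9, at percentile 94.8.

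**Figure D2:**
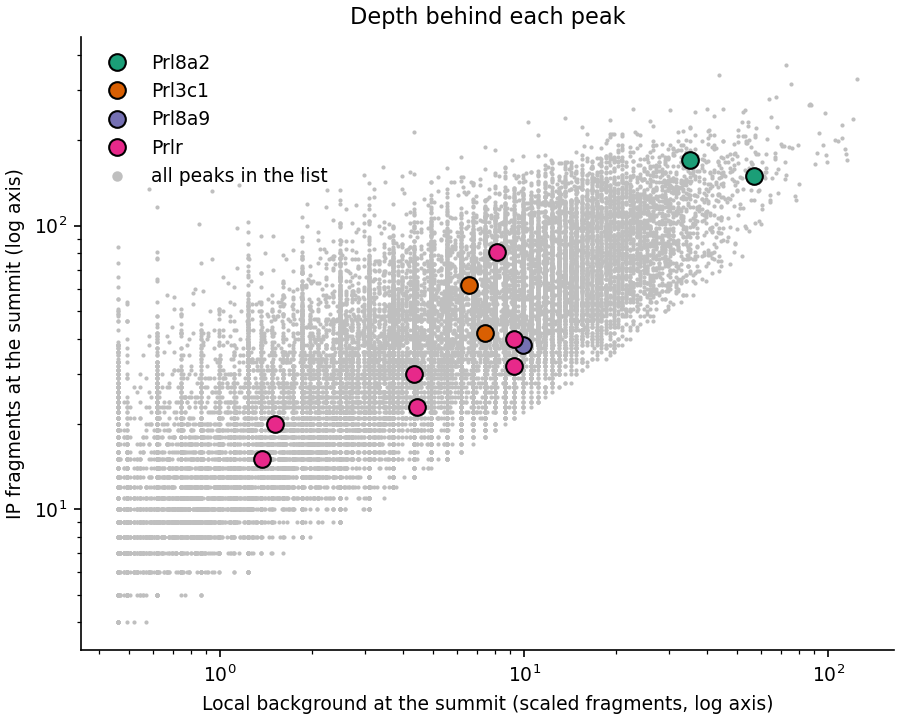
IP fragments at the summit (y axis) against local background in scaled fragments (x axis), both on log axes, for the 12 peaks in the 4 genes and for all peaks in the list (grey). The Prl8a2 peaks lie near the upper right, at 170 and 150 IP fragments, and the Prlr peaks run from 15 to 81.

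Prl3c1, also called decidualin or prolactin-like protein J, encodes another secreted prolactin of the decidua (NCBI Gene 27372, chromosome 13, 27196660 to 27203749, plus strand). Both of its peaks lay in the part of the gene nearest the annotated start. Peak 1 spanned 27197352 to 27197568, with its summit 755 bases after the start. It had 42 IP fragments over a background of 7.41, or 5.11-fold (3.72 to 6.87). Peak 2 spanned 27198454 to 27198722, with its summit 1917 bases after the start. It had 62 IP fragments over a background of 6.60, or 8.29-fold (6.39 to 10.6). The intervals of the pair overlapped, and the difference between the peaks was not tested. No summit lay in the last 5172 bases of the gene.

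RefSeq gives Prl3c1 a second start inside the gene, and peak 2 reached into the sequence before it. The summit lay 326 bases upstream of that start at 27198903. Sequence at the annotated starts is available from RefSeq (GRCm38.p6, the assembly of mm10), 250 bases before to 50 bases after each. The pair of Prl3c1 windows is printed because the second holds 70 bases of peak 2, from 27198653 to 27198722, in capitals. In the first, capitals mark the matches to TATATA.
Prl3c1 first start, chr13:27196410-27196709, plus strand: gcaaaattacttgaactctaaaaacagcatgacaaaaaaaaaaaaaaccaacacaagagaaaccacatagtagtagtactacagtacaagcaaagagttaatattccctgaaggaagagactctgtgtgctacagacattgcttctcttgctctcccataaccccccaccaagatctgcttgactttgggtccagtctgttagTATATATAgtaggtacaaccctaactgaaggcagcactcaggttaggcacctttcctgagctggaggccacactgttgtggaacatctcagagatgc
Prl3c1 second start, chr13:27198653-27198952, plus strand: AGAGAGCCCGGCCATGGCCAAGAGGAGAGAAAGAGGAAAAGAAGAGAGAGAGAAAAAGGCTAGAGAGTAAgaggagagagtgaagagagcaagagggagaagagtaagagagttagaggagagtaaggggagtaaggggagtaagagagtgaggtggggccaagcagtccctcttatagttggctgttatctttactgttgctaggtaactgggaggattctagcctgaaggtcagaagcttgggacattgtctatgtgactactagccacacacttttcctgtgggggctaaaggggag

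The first window has a run of 2 overlapping matches to TATATA, letters that read the same on both strands, and the run begins 47 bases before the start. The second window has no match. Of the 25 start windows of prolactin family genes in the table, 22 hold TATATA, as do 5.67% of all 32851 windows. The 25 windows come from 22 genes and are not independent, since the windows of Prl6a1 overlap each other, as do those of Prl7d1, and some paralogues are nearly identical. The 70 bases of peak 2 in the second window are 84.3% A or G. Of all windows, 0.262% have a share as high in their first 70 bases. These bases hold no AC, the pair of letters at the centre of the usual m6A motif, on the transcript strand and 1 on the other strand. No AC is found on the transcript strand in the first 70 bases of 3.76% of all windows. The letters GGACT, a common form of that motif, are on the transcript strand in neither Prl3c1 window and in 26.1% of all windows. They are on the other strand 1 time, in the second Prl3c1 window, and on either strand in 45.5% of all windows. No TATATA match shares bases with a GGACT match here. A missing match speaks only of these letters in these windows, and the summit of peak 2 lies outside the printed bases. The A or G share was not specified in advance. The first bases of start windows lie before annotated starts and are not a set of peak sequences, so the shares over all windows are no test.

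Prl8a9, also called prolactin-like protein C beta, is best known from the trophoblast of the placenta (NCBI Gene 67310, chromosome 13, 27557995 to 27564606, minus strand). Its only peak lay at the other end of the gene from those of Prl3c1. It covered 27558192 to 27558467, and the summit was 350 bases from the transcript end and 6261 bases from the start. It had 38 IP fragments over a background of 9.88, or 3.58-fold (2.56 to 4.89). This interval overlapped that of Prl8a2 peak 1 and lay below that of Prl3c1 peak 2. Its fold stood at percentile 10.6 of all peaks.

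Prl8a9 is a placental rather than a decidual prolactin by background knowledge, so markers of both tissues were read beside it. The share of all protein-coding genes with a peak, 55.7%, is the background for these counts. Of 10 decidual markers outside the 4 genes, 9 carried a peak. Cebpb, a transcription factor of decidualization, had 16.8-fold (14.3 to 19.7) and Wnt4, a signal of the stroma, had 10.3-fold (8.53 to 12.4), while Il11ra1 had no peak. Of 10 trophoblast markers 4 carried a peak. Tfap2c had 17.5-fold (12.3 to 24.3), Eomes 14.4-fold (9.04 to 21.8), Hand1 12.998-fold (7.98 to 20.1) and Cdx2 4.79-fold (2.19 to 9.62). The Eomes, Hand1 and Cdx2 peaks stood on the lowest background in the list, 0.462, with 20, 18 and 6 IP fragments, and the Eomes summit lay in 2 gene spans. The other trophoblast markers, Tpbpa, Gcm1, Ascl2, Prl3d1, Prl3b1 and Prl2c2, had no peak. The part of trophoblast RNA in the Prl8a9 peak was not tested. All 5 smooth muscle markers carried a peak, as did all 5 natural killer cell markers, among which Eomes is counted again. Of 9 pituitary markers, Prl included, none did.

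The other prolactin genes carried no peak. Of the 26 family genes only Prl8a2, Prl3c1 and Prl8a9 did, against 55.7% of all protein-coding genes. The 23 without a peak include Prl itself, the placental lactogens Prl3d1, Prl3d2, Prl3d3 and Prl3b1, the proliferins Prl2c2, Prl2c3 and Prl2c5, and Prl6a1. A gene may lack a peak because its RNA is unmethylated, absent or too thinly covered, and these could not be separated. Near-identical copies are a further limit, since how reads with several matches were placed is not given in the sources used here. Start windows of 6 family genes matched another family gene at 92.3% to 98.3% of their bases. These were Prl2c3, Prl2c5, Prl3d1, Prl3d2, Prl3d3 and Prl7d1. Of the start windows of Prl3c1 and Prl8a9, the closest match was that of Prl8a9 to Prl8a1, at 82.7%. In each window 250 bases lie before the annotated start, so these matches do not measure the likeness of the transcripts. No start window was in the table for Prl8a2, Prl2c2, Prl7b1 and Prl2c1.

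Between the prolactin genes, peaks were frequent. The main cluster runs from Prl to Prl5a1 over 1.09 Mb of chromosome 13 (27057570 to 28151595) and holds 23 family genes. It held 41 peaks, and 36 of them (87.8%) had a summit outside every annotated gene span. Over the whole list 8.75% of peaks did. These shares take no account of how many bases lie outside gene spans, in the cluster or elsewhere. Most of the cluster's length lies between its genes. The 36 lay between 59.9 and 318.9 kb from the lower end of the cluster, in 7 of the gaps between genes. Above them, over 14 family genes, the single peak was that of Prl8a9.

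The gaps beside Prl8a2 and Prl3c1 held 23 of the 36. By nearest gene, only 8 lay closest to Prl8a2 and 8 to Prl3c1. The rest lay closest to family genes without a peak, namely Prl3d2 (6), Prl6a1 (4), Prl2b1 (4), Prl3d3 (3) and Prl3a1 (3). Of the 36, the summit closest to a gene was 939 bases from Prl3d2. The highest fold, 11.6, lay between Prl3b1 and Prl3a1. Above Prl8a2 there were 12, with summits 4727 to 22301 bases from its upper end and folds of 2.94 to 10.5. None lay in the gap below Prl8a2, toward Prl6a1. Below Prl3c1 there were 7 of 4.40-fold to 10.4-fold, with the nearest summit 8275 bases from its start. Above Prl3c1 there were 4 of 2.95-fold to 11.1-fold, 2269 to 12328 bases past its end. The widest of them covered 2356 bases (27215585 to 27217940), and 1.05% of all peaks were as wide. Of the 36 peaks between genes, 11 were above the highest Prl3c1 fold and 25 above the highest Prl8a2 fold. Most were covered more thinly, and 30 of 36 had fewer than the 38 IP fragments of the Prl8a9 peak, which is the lowest of the prolactin peaks. Without strand or exon positions, these peaks were assigned to no gene. For the rule that chose the peaks, the nearest summit it left out was 2269 bases beyond Prl3c1, at 2.95-fold. The corresponding distances were 4727 bases for Prl8a2, 97946 bases for Prlr and 181478 bases for Prl8a9.

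**Figure D3:**
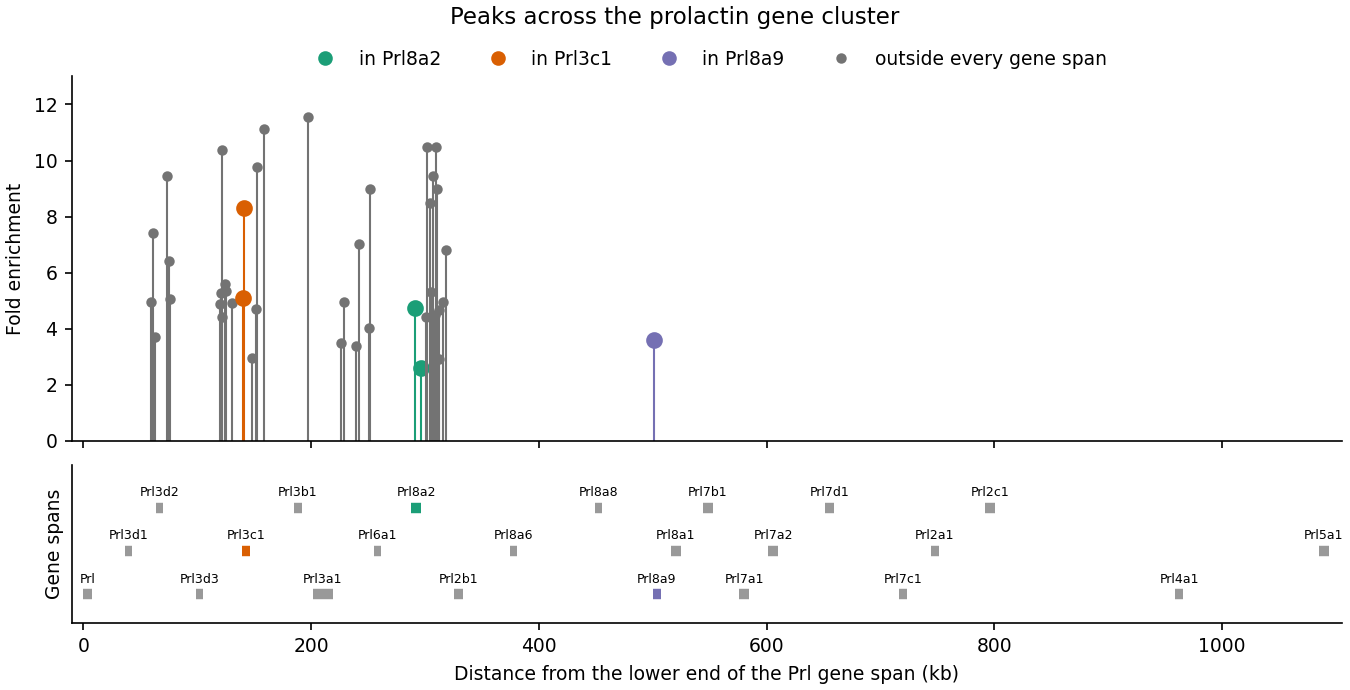
Fold enrichment (y axis, upper panel) of the 41 peaks in the prolactin cluster by distance in kb from the lower end of the Prl span (x axis), with the 23 family gene spans below. Coloured points are peaks inside Prl8a2, Prl3c1 and Prl8a9 and grey points are the 36 outside every gene span, all of which lie between 59.9 and 318.9 kb.

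Prlr (NCBI Gene 19116, chromosome 15, 10177238 to 10349190, plus strand) held 7 peaks over a span of 171953 bases. At least 7 peaks were found in 835 protein-coding genes, 6.88% of those with a peak, and the median was 2. These counts take no account of gene length. Per kb of span Prlr had the fewest peaks of the 4 genes, 0.041, beside 0.282 in Prl3c1, 0.234 in Prl8a2 and 0.151 in Prl8a9. The folds ran from 3.22 to 8.96 with a median of 5.82. All 7 summits lay in no other gene span. The peaks fell into an inner pair, a peak on its own and a group of 4 toward the end of the gene.

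The group of 4 held the most enriched and deepest peak of Prlr. These peaks lay within 5858 bases, from 10327446 to 10333303, and their summits were 16119 to 21652 bases from the annotated end of the span. Peak 5 spanned 10328184 to 10329372, a width of 1189 bases, and had 81 IP fragments over a background of 8.15. It reached 8.96-fold (7.14 to 11.1). Its neighbours were lower at 4.43-fold (2.87 to 6.55) for peak 4, 3.22-fold (2.23 to 4.50) for peak 6 and 3.99-fold (2.88 to 5.40) for peak 7. None of these 3 intervals overlapped that of peak 5. Backgrounds at peaks 6 and 7 were both 9.26, close to that of peak 5, so the lower folds there went with fewer IP fragments, 32 and 40. Peak 4 had 23 IP fragments on a background of 4.42.

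The other Prlr peaks stood on lower backgrounds than the group of 4, clearly so at peaks 1 and 3 but barely at peak 2. Peaks 1 and 2 had summits 65550 and 67207 bases after the first annotated start, 1657 bases apart. Peak 1 (10242657 to 10242936) had 20 IP fragments over a background of 1.52, or 8.34-fold (5.25 to 12.7). Peak 2 (10244295 to 10244544) had 30 over a background of 4.32, or 5.82-fold (3.99 to 8.23). Peak 3 (10316514 to 10316754) had 15 over a background of 1.37, or 6.75-fold (3.96 to 10.9). The intervals of these 3 overlapped that of peak 5, and the differences among the 4 were not tested. RefSeq gives Prlr further starts at 10223906 and 10293651. Peaks 1 and 2 lay between these, and peak 3 and the group of 4 lay after the last. Which of the receptor's forms carried a peak could not be read from the list, since no exon positions were used. Where each summit lies against exons and the stop codon is likewise not analysed here.

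**Figure D4:**
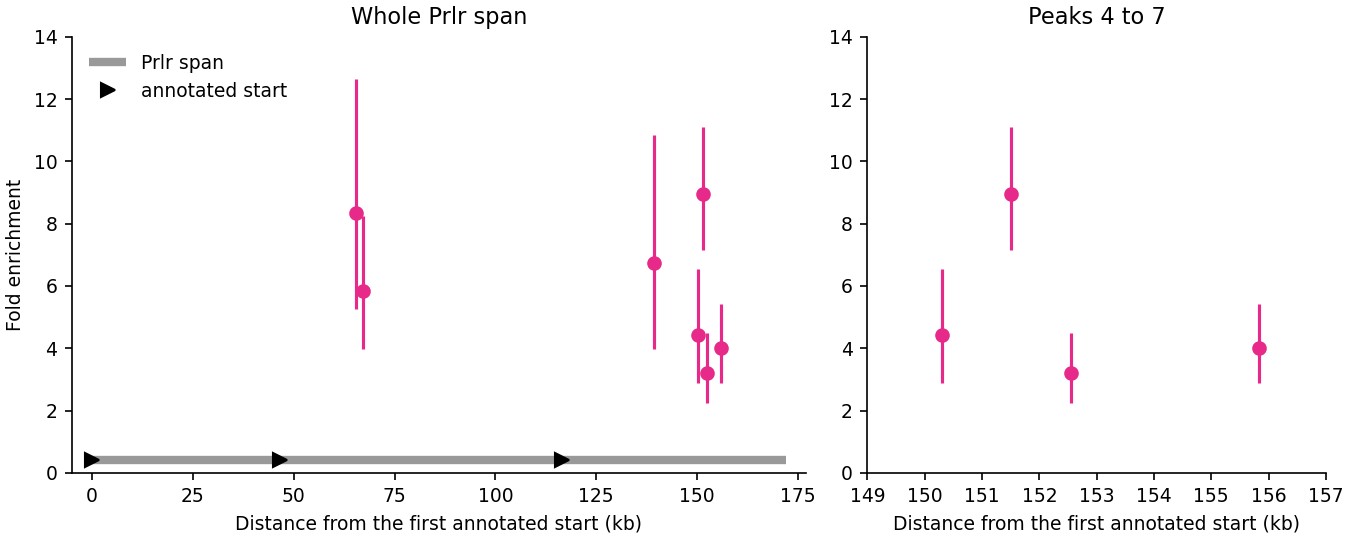
Fold enrichment (y axis) of the 7 Prlr peaks by distance from the first annotated start (x axis, kb), over the whole span at left and for peaks 4 to 7 at right. Points are folds, bars are exact 95% Poisson intervals, the grey bar is the gene span and triangles are the 3 annotated starts. Peak 5 at 8.96-fold stands above its neighbours at 3.22-fold to 4.43-fold.

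The 4 genes fell into pairs by their highest fold. The highest peaks of Prl3c1 and Prlr, at 8.29-fold and 8.96-fold, had overlapping intervals. Those of Prl8a2 and Prl8a9, at 4.72-fold and 3.58-fold, overlapped each other and lay below both. Of the 66 pairs among the 12 peaks, the intervals overlapped in 47 and stood apart in 19. Among the 12 peaks, 8 were below the median fold of the list, 6.16, and 10 were above its median background of 3.33. Of protein-coding genes with a peak, 12.9% had a lower highest fold than Prl8a2 and 5.09% a lower one than Prl8a9. The shares were 53.0% for Prl3c1 and 59.9% for Prlr.

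Of 19 genes that relay or damp the receptor's signal, besides Prlr, 17 carried a peak, where 55.7% of all protein-coding genes did. The median of their highest folds was 8.63 beside a median of 8.04 in all protein-coding genes that had a peak. In 7 of the 17 the highest fold was above that of Prlr. The highest were Pik3r1, the regulatory subunit of PI3 kinase, at 23.3-fold (16.2 to 32.4) and Fyn, a Src-family kinase, at 19.1-fold (15.4 to 23.5). The Pik3r1 peak stood on the lowest background in the list, 0.462, and the Fyn summit lay in 2 gene spans. The next were inhibitors that damp cytokine receptor signals, Socs7 at 17.3-fold (12.7 to 23.1), Socs1 at 13.7-fold (8.51 to 20.98) and Cish at 9.40-fold (5.91 to 14.3). The Socs1 peak also stood at 0.462. Stat5a and Stat3, which carry the signal to the nucleus, had no peak. Jak2, the kinase bound to the receptor, had 5 peaks of up to 7.49-fold (5.77 to 9.57). Stat5b had 1 of 7.04-fold (3.98 to 11.7) from 13 IP fragments. Jak2 and Stat5b were named after their values were seen.

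**Figure D5:**
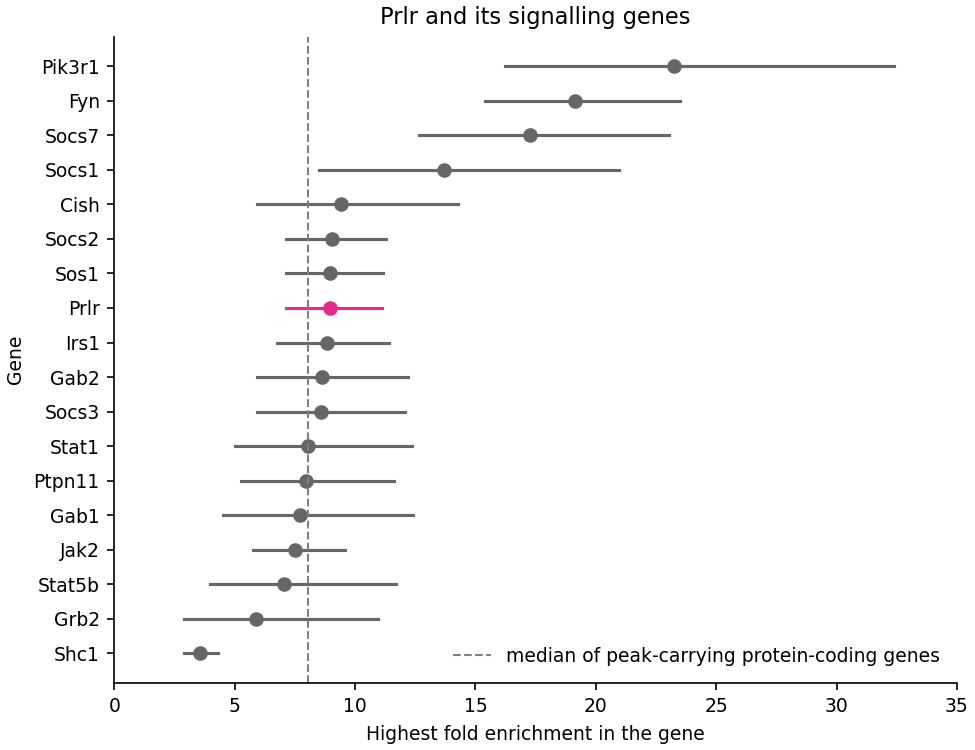
Highest fold enrichment (x axis) in Prlr and the 17 signalling genes with a peak (y axis). Points are the authors' folds, bars are exact 95% Poisson intervals and the dashed line is the median over peak-carrying protein-coding genes, 8.04. Prlr at 8.96-fold sits among genes between Shc1 at 3.54-fold and Pik3r1 at 23.3-fold.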

How the data were processed

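RNA extracted with TRIzol was made into strand-keeping libraries, per the labels' protocols, 1 after m6A immunoprecipitation and 1 input. HISAT2 2.2.1, MACS3 3.0.0a7 and the build mm10 are named, per the submitters' processing notes, with no settings. The deposited peak list gives the authors' fold enrichment (a ratio), −log10 p-value, −log10 q-value and a display score, which was not used further. The list carries no strand, and library sizes are not given.

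IP fragments (k) were recovered from the deposited values by taking the fold as (k + 1)/(background + 1) and p as the upper Poisson tail beyond k. A whole k matched p within 0.001 at 100% of peaks. In a test on 1999 simulated peaks, k was recovered in 100%. Those peaks were built with the same formulas, so the test checks the inversion and not whether the deposited values follow them. Gene spans came from the RefSeq table of GRCm38.p6, without 364 rows off the assembled chromosomes, and strand came from the table of start windows. Coordinates are counted from 1. No between-group test was made. Start windows were compared by global alignment.

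The genes and lists were chosen with earlier results of these data known. Named were the 4 genes, family genes with a peak, and in the signalling, receptor and target lists the 5 highest and those without a peak. The nearest other genes with a peak were named too. A gene that this rule selects is not reported here. Scripts used Python 3.11.15 with Biopython 1.88, scipy 1.17.1, numpy 2.4.6, pandas 2.3.3 and matplotlib 3.10.9.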

Additional observations from a re-analysis of the deposited data

How the results depend on the processing

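The alternatives were a fold of at least 4, a −log10 q of at least 5, an overlap of 1 base or of 50% of the peak in place of the summit, merging of same intervals, and leaving out summits in 2 or more gene spans. The peak of highest −log10 q was also taken in place of that of highest fold. Of 75 values, 73 stayed within their limits, which were 1.5 times for counts and the Poisson interval for folds. Many of these values could not have changed, so the count of 73 is no measure of robustness. All 12 peaks in the 4 genes had a −log10 q above 5 and a summit in no other gene span. The settings on q and on shared spans therefore could not alter the values of the 4 genes. A highest fold above 4 could not change under the 4-fold setting. With peaks of at least 4-fold, Prl8a2 kept 1 peak and Prl8a9 had 0, so the highest fold of Prl8a9 had no value there. Under the same setting Prlr had 5 peaks, 2 family genes had a peak and the 4 genes held 8 peaks. These lower counts, down from 7, 3 and 12, were still within the limit of 1.5 times, which is wide for counts this small. No paired analysis was possible because each group had 1 library. Depth limits the order of folds, most at Prlr peaks 1 and 3 with 20 and 15 IP fragments.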

Other observations

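Of 11 genes known from other tissues as targets of prolactin, 4 carried a peak (36.4%), where 55.7% of all protein-coding genes did. Wnt4 reached 10.3-fold (8.53 to 12.4), Cish 9.40-fold, Ccnd1, which drives cell division, 9.11-fold (6.02 to 13.3) and Socs2, a feedback inhibitor, 9.04-fold (7.13 to 11.3). Wnt4 was already counted among the decidual markers, and Cish and Socs2 among the signalling genes. The milk protein genes Csn2, Csn1s1 and Wap had no peak, nor had Elf5, Tnfsf11, Igf2 and Akr1c18, which encodes an enzyme that inactivates progesterone. Among the relatives of Prlr, the growth hormone receptor gene Ghr held 7 peaks of up to 13.5-fold (10.6 to 17.0), with that summit in 2 gene spans. Epor, the erythropoietin receptor gene, had none.

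Leaving out the 4 genes themselves, the nearest gene with a peak was sought around each. For Prlr it was Dnajc21, at a distance of 97.6 kb with 5 peaks of up to 16.9-fold. For Prl8a2 and Prl3c1 it was the pseudogene Gm11353, 852.5 and 703.4 kb away, with 1 peak of 5.17-fold. For Prl8a9 it was the pseudogene Rps18-ps5, 693.0 kb away, with 1 peak of 6.85-fold.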
